A study of Mus musculus with 5 samples.

Results

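Sox9, Sox5 and Sox6 are the 3 transcription factor genes, of 31055 genes in the count matrices, that are known as the SOX trio of cartilage. The genes were chosen by name, and their UMIs, the counted RNA molecules of the 10x Genomics 3′ assay, were read in 29493 retained cells of 34439 barcodes. Cells came from adult Prx1Cre;mTmG mice on a C57Bl/6 background (10 to 14 weeks old), in which the Prx1 limb mesenchyme enhancer drives Cre and recombined cells turn from Tomato to GFP. Prx1 also labels periosteum and tendon cells, and only skeletal muscle around the tibia was dissected. GFP+ cells were sorted from uninjured mice (d0), at d3 and d5 after a non-stabilized tibial fracture, and at d3 and d5 after polytrauma, in which the fracture was combined with injury of the surrounding muscle. Each condition was 1 library pooled from 2 mice, so that no difference between conditions has a replicate check and all intervals cover counting error only.

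SOX9 belongs to the SoxE group and carries a transactivation domain. It is required for mesenchymal cells to enter the chondrogenic fate and binds enhancers of genes such as Col2a1 and Acan. SOX5 and SOX6 are SoxD proteins, which lack a transactivation domain, dimerize through a coiled coil and strengthen SOX9 activity at these enhancers. Sox9 is also present in progenitors of limb mesenchyme and tendon, whereas Sox5 and Sox6 have roles outside cartilage, Sox6 for example in muscle and red blood cells.

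In GRCm38, Sox9 (ENSMUSG00000000567) lies on the plus strand of chromosome 11 at 112782224 to 112787760, a span of 5537 bases. Sox5 (ENSMUSG00000041540) covers 143828425 to 144781977 of chromosome 6 and Sox6 (ENSMUSG00000051910) covers 115470872 to 116038796 of chromosome 7, both on the minus strand. Promoter windows of RefSeq (GRCm38.p6) were at hand for Sox5 and Sox6 but not for Sox9. They run from 250 bases before to 50 bases after a transcript start. A link between these sequences and the levels of the genes was not tested. The single Sox5 start, which lies inside the annotated span of the gene and not at its 5′ end (144781977), is given with the most upstream of 6 Sox6 starts. Capitals mark the SOX-type letters ACAAAG or ACAAT, searched on both strands:
Sox5, chr6:143947057-143947356, minus strand: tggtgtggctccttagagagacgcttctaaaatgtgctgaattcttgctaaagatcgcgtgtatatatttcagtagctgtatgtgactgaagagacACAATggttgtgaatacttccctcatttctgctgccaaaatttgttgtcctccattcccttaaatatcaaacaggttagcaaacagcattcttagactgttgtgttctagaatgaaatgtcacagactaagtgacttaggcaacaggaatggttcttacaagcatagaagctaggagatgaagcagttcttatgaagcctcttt
Sox6, chr7:116038695-116038994, minus strand: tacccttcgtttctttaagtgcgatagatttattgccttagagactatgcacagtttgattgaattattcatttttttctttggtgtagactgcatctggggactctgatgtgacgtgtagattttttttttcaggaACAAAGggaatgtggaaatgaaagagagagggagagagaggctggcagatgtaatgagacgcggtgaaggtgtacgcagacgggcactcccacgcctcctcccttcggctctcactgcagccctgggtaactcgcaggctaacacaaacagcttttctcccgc

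The Sox5 window held ACAAT once and the Sox6 window held ACAAAG once. Among the 6 Sox6 starts, 5 held ACAAAG and 3 held ACAAT. Both motifs begin with the same letters and are common, since 18.7% of 32851 RefSeq promoter windows held ACAAAG and 31.0% held ACAAT. The 3′ counts do not tell which start was used.

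The conditions of 2 libraries needed attention before the comparisons. The library labelled d3 polytrauma held 2001 barcodes, which is the cell number listed for d5 post-fracture in the source data, and the library labelled d5 fracture held 6915. These libraries were therefore used as d5 post-fracture and d3 post-polytrauma, respectively. The d5 post-fracture library so defined shared 944 barcodes with d5 post-polytrauma and 0 with d0, d3 post-fracture and d3 post-polytrauma. The library used as d3 post-polytrauma shared 525 barcodes with d0, 508 with d3 post-fracture and 0 with d5 post-polytrauma, and d0 and d3 post-fracture shared 405. Of the 944 barcodes in both d5 libraries, 938 had more UMIs in d5 post-fracture, and they were left out of d5 post-polytrauma, where 338 passed the cell filters. Median UMIs per retained cell ranged from 3640 at d0 to 34949 at d5 post-fracture. EGFP was detected in 97.3 to 99.4% of cells of each library and tdTomato had 0 to 2 UMIs, whereas cells with at least 3 of 6 hematopoietic markers numbered 3 to 97 per library.

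Sox9 was detected in every library. Its level, as UMIs scaled to 1e6 UMIs of the library (CPM), was 66.7 CPM at d0 (1163 UMIs), 90.6 CPM at d3 post-fracture (9050 UMIs), 377 CPM at d5 post-fracture (19564 UMIs), 112 CPM at d3 post-polytrauma (11553 UMIs) and 126 CPM at d5 post-polytrauma (25296 UMIs). The d5 post-fracture library stood apart above the other 4.

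Sox5 was low after 3 days in both injuries. The level was 28.3 CPM at d0 (494 UMIs), 3.80 CPM at d3 post-fracture (380 UMIs), 33.8 CPM at d5 post-fracture (1751 UMIs), 3.96 CPM at d3 post-polytrauma (409 UMIs) and 10.0 CPM at d5 post-polytrauma (2022 UMIs). The d3 libraries were not distinguishable by counting error (3.43 to 4.20 and 3.59 to 4.36 CPM), whereas d0 and d5 post-fracture were the highest.

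Sox6 had the widest range of the 3 genes. The level was 12.6 CPM at d0 (220 UMIs), 0.730 CPM at d3 post-fracture (73 UMIs), 25.9 CPM at d5 post-fracture (1342 UMIs), 0.387 CPM at d3 post-polytrauma (40 UMIs) and 2.41 CPM at d5 post-polytrauma (485 UMIs). Both d3 libraries were near the lowest levels measured, and d5 post-polytrauma remained below d0. An antisense gene, Sox6os, overlaps Sox6 on the opposite strand and had 98 UMIs at d0 and 12 to 43 in the other libraries. The antisense genes inside Sox5 had 0 to 16 UMIs per library.

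**Figure D1:**
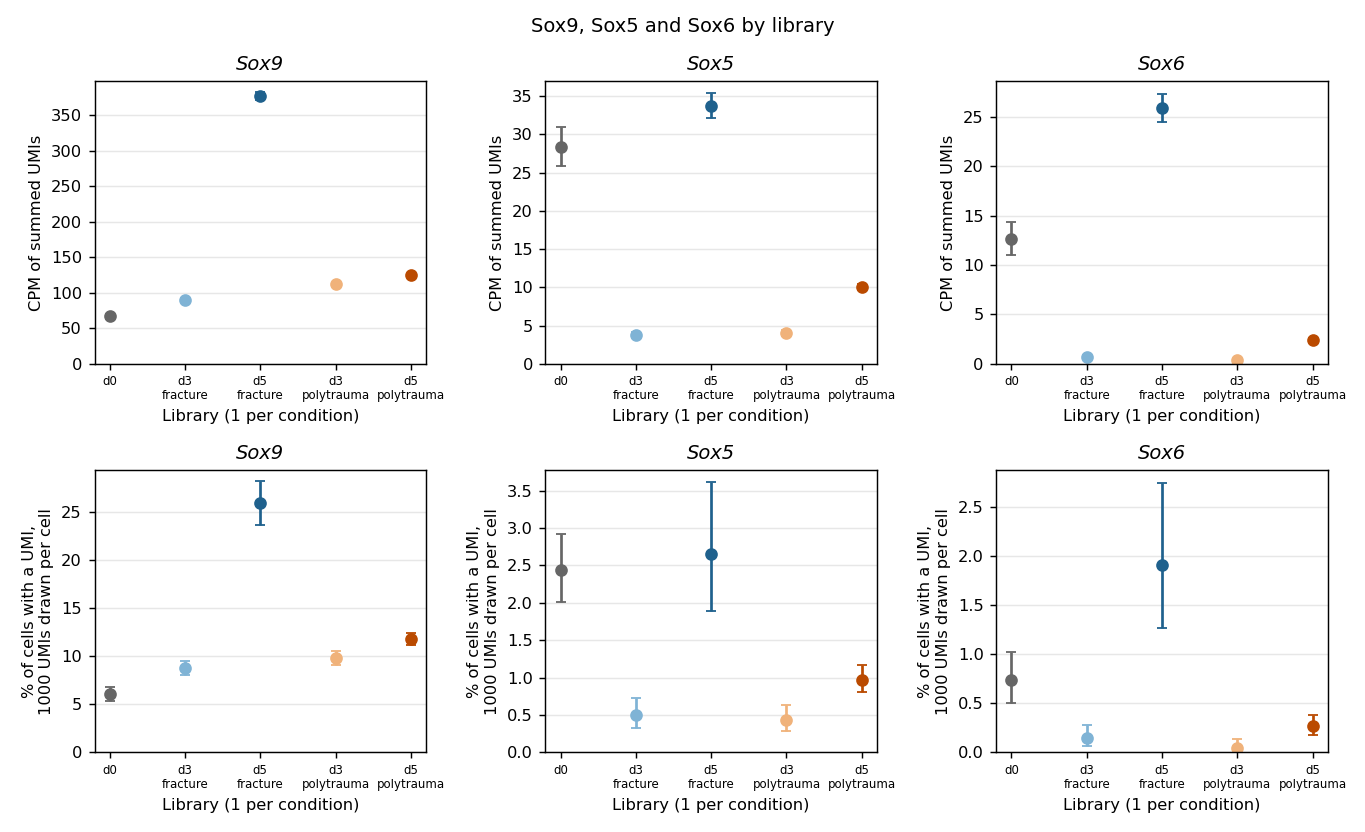
Levels of Sox9, Sox5 and Sox6 in the 5 libraries as CPM of summed UMIs (upper row, 95% Poisson intervals) and as the percent of cells with at least 1 UMI after 1000 UMIs were drawn per cell (lower row, 95% binomial intervals). The d5 post-fracture point is the highest in all 6 panels, with an interval that overlaps d0 for the Sox5 share, and Sox5 and Sox6 are lowest in the d3 libraries.

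The share of cells with a UMI was compared after each cell was drawn to 1000 UMIs. Sox9 was detected in 6.04% of cells at d0, 8.77% at d3 post-fracture, 25.9% at d5 post-fracture, 9.80% at d3 post-polytrauma and 11.8% at d5 post-polytrauma. Without this step the Sox9 shares were 15.2, 57.4, 83.4, 63.3 and 64.0% in libraries whose median depth differed. At 1000 UMIs, the Sox5 shares were 2.44, 0.501, 2.66, 0.435 and 0.974%, where the intervals of d0 and d5 post-fracture overlapped (2.01 to 2.93% and 1.90 to 3.61%), as did those of the d3 libraries. Undrawn, they were 9.30, 6.32, 44.7, 6.29 and 13.8%. The Sox6 shares were 0.734, 0.143, 1.91, 0.0484 and 0.267% when drawn and 4.06, 1.18, 22.8, 0.629 and 2.93% undrawn. Hematopoietic cells, which should lack these genes, served as background: of 97 such cells at d3 post-polytrauma (median 3973 UMIs, against 15688 for all retained cells), 14 had a Sox9 UMI, 1 had a Sox5 UMI and none had a Sox6 UMI. Drawn to 1000 UMIs, 0 of these 97 had Sox9, which allows a share of up to 3.73%. The summed Sox9 level in them was 42.9 CPM on 25 UMIs, and the part of free RNA in it was not tested.

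The first comparison asked how the trio stood 3 days after fracture. Sox9 was 1.36-fold higher at d3 post-fracture than at d0, a log2 ratio of 0.44 (95% interval 0.35 to 0.53), while the median over 14610 measured genes was −0.45. With median-of-ratios scaling the Sox9 log2 ratio was 1.02 and passed 2-fold. Sox5 was 7.45-fold lower (log2 ratio −2.90, −3.09 to −2.70) and Sox6 was 17.3-fold lower (−4.11, −4.51 to −3.72). Sox9 and the SoxD genes thus lay on opposite sides of the median of all genes. Among all measured genes, 13.0% were at least 2-fold higher and 33.5% at least 2-fold lower.

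Between d3 and d5 post-fracture all 3 genes were higher at d5. Sox9 was 4.17-fold higher (log2 ratio 2.06, 2.02 to 2.09), Sox5 8.88-fold (3.15, 2.99 to 3.31) and Sox6 35.4-fold (5.15, 4.81 to 5.51). Here the median of 15115 measured genes was 0.73, and 40.3% of them were at least 2-fold higher and 5.45% at least 2-fold lower. Each of the 3 log2 ratios lay above that median by more than its counting interval.

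After polytrauma the d5 to d3 ratios were smaller for each gene than after fracture, a difference that was not tested. Sox9 at d5 was 1.12-fold its d3 level (log2 ratio 0.17, 0.13 to 0.20), below the median of 0.48 over 16058 genes, and turned to −0.32 with median-of-ratios scaling, which sets that median near 0. Sox5 was 2.53-fold higher (1.34, 1.19 to 1.50), but 0.86 on the log2 scale and thus under 2-fold with that scaling. Sox6 was 6.22-fold higher (2.64, 2.17 to 3.14), in a background of 28.6% of genes at least 2-fold higher and 7.58% at least 2-fold lower.

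Polytrauma was then set against fracture at matched days. At d3, Sox9 was 1.24-fold higher in polytrauma (log2 ratio 0.30, 0.26 to 0.34), the Sox5 ratio of 0.059 had an interval that included 0 (−0.15 to 0.26), and Sox6 was 1.89-fold lower (−0.92, −1.51 to −0.34) on 40 and 73 UMIs. The background at d3 was 5.45% of genes at least 2-fold higher and 3.14% at least 2-fold lower, with a median of −0.01. At d5 all 3 genes were lower in polytrauma. Sox9 was 3.00-fold lower (−1.59, −1.61 to −1.56), Sox5 3.36-fold lower (−1.75, −1.84 to −1.66) and Sox6 10.7-fold lower (−3.43, −3.58 to −3.28), whereas 3.52% of all genes were at least 2-fold higher and 14.8% at least 2-fold lower, with a median of −0.13.

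These values rest on the assignment of the 2 libraries. With conditions as deposited, d5 against d3 post-fracture gave log2 ratios of 0.30 for Sox9, 0.059 for Sox5 and −0.92 for Sox6. As deposited, d5 post-polytrauma against d5 post-fracture gave 0.17, 1.34 and 2.64, respectively. The barcodes in both d5 libraries also bore on the d5 post-fracture level, since the 869 retained cells in both had 383 CPM of Sox9, 34.8 CPM of Sox5 and 28.9 CPM of Sox6. The 599 retained cells found in d5 post-fracture only had 358, 30.5 and 16.2 CPM, so that Sox6 differed most between these cells. Col2a1 was 1831 CPM in the former and 542 CPM in the latter. The former were also deeper (median 42462 against 19075 UMIs), and the part of depth in these gaps was not tested.

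Cells of each library were clustered separately at a resolution of 0.5, and clusters were named only from fixed markers. At d0, Sox6 was largely a gene of a pericyte-like cluster of 746 cells, led by smooth muscle genes such as Myh11 and Acta2. Kcnj8 and Abcc9 were not among the markers that named it, and the name does not set pericytes apart from smooth muscle cells. This cluster had 54.5 CPM of Sox6 and held 79.5% of all Sox6 UMIs of the library with 16.1% of the cells. The 5 FAP/MP-like clusters, which carry markers of fibro-adipogenic and mesenchymal progenitors, had 0 to 1.21 CPM of Sox6.

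Sox5 was highest in the same pericyte-like cells, at 57.6 CPM, but was also found in the FAP/MP-like clusters at 22.0 to 38.1 CPM. Sox9 had the opposite pattern and was lowest, among clusters of at least 50 cells, in the pericyte-like cluster, at 15.6 CPM, against 35.2 to 95.1 CPM in the FAP/MP-like clusters. The highest Sox9 level at d0 was 242 CPM in an unnamed cluster of 298 cells led by Saa1, Col9a2, Dlk1 and Trf, which held 23.5% of the Sox9 UMIs. In that cluster Sox5 was at 23.0 CPM, Sox6 at 10.6 CPM and Col2a1 at 7.96 CPM. The tenocyte-like cluster (133 cells) had 30.3 CPM of Sox9, 1.68 CPM of Sox5 and 15.1 CPM of Sox6, each on 1 to 18 UMIs.

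**Figure D2:**
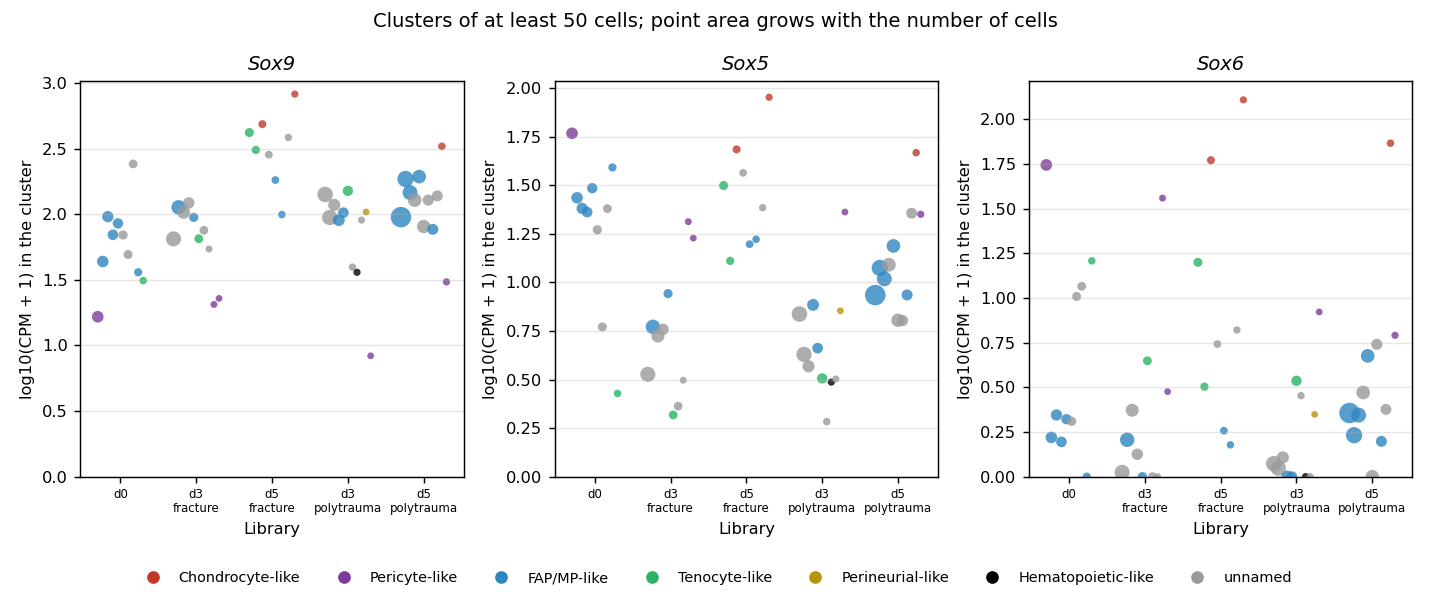
Level of Sox9, Sox5 and Sox6 in each cluster of at least 50 cells, as log10(CPM + 1), by library and coloured by the name of the cluster. Chondrocyte-like clusters are the highest for all 3 genes in both d5 libraries, and pericyte-like clusters are high for Sox5 and Sox6 and low for Sox9 at d0.

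At d3, Sox9 was spread over the large clusters, whereas Sox6 was low in them. Post-fracture, 4 clusters had more than 500 cells, and they were FAP/MP-like or unnamed. They had 64.0 to 121 CPM of Sox9, 2.36 to 4.91 CPM of Sox5 and 0.0570 to 1.35 CPM of Sox6. The highest Sox6 level was again in a pericyte-like cluster, with 35.2 CPM on 9 UMIs in 67 cells led by Myh11. Sox9 was at 19.6 CPM there. However, the pericyte-like clusters held only 13.7% of the Sox6 UMIs of the library. An unnamed cluster of 989 cells, led by genes such as Acan and Nusap1, held 38.4%, and the tenocyte-like cluster held 21.9%. Post-polytrauma, the pericyte-like cluster (54 cells) had 7.35 CPM of Sox6 on 3 UMIs and 22.0 CPM of Sox5 on 9 UMIs. A tenocyte-like cluster of 525 cells held 52.5% of the Sox6 UMIs of that library, at 2.44 CPM on 21 UMIs.

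The lower Sox5 and Sox6 at d3 post-fracture went together with fewer pericyte-like cells, 2.09% of cells against 16.1% at d0, and both genes were also lower in all other cells. All 7 pericyte markers were detected in both libraries, and their summed level was 1165 CPM at d0 and 74.3 CPM at d3 post-fracture. Most of the d0 sum was Myh11 (504 CPM at d0 and 4.78 CPM at d3) and Mylk (488 and 25.5 CPM). Cspg4 (35.5 and 3.20 CPM) and Des (70.1 and 12.7 CPM) were lower too. Rgs5 (59.1 and 24.0 CPM), Abcc9 (4.82 and 1.92 CPM) and Kcnj8 (3.56 and 2.24 CPM) differed less. Within the pericyte-like clusters Sox5 was at 17.1 CPM against 57.6 CPM at d0 (log2 ratio −1.75, −2.69 to −0.94) and Sox6 at 13.2 against 54.5 CPM (−2.05, −3.13 to −1.13). The d3 cells combined a cluster led by Rgs5 and Kcnj8, with 1.99 CPM of Sox6, and a cluster led by Myh11, as the d0 cluster was. In the latter alone Sox6 was at 35.2 CPM (16.1 to 66.8), which overlapped the d0 interval (46.7 to 63.2), so that a difference of Sox6 between these like cells was not detectable. Sox5 there was at 19.6 CPM (6.35 to 45.6), below the d0 interval (49.6 to 66.5), on 5 UMIs. In all other cells Sox5 was at 3.70 CPM against 21.7 CPM (−2.55, −2.78 to −2.33) and Sox6 at 0.635 against 3.16 CPM (−2.32, −2.89 to −1.73). The corresponding log2 ratios of Sox9 were 0.44 (−0.47 to 1.27) within and 0.22 (0.13 to 0.31) outside the pericyte-like clusters.

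At d5 post-fracture Sox9 and Sox6 were highest in chondrocyte-like cells, and so was Sox5 among clusters of at least 50 cells. A cluster of 101 cells led by Pcp4, Hapln1, Col2a1 and Col9a3 had 825 CPM of Sox9, 88.9 CPM of Sox5 and 127 CPM of Sox6, next to 10480 CPM of Col2a1. A cluster of 195 cells with chondrocyte markers, led by mitosis genes such as Top2a and Plk1, followed with 486, 47.4 and 57.9 CPM. The 2 clusters were 20.2% of cells and held 42.1% of the Sox9 UMIs, 48.1% of the Sox5 UMIs and 83.1% of the Sox6 UMIs. Sox9 extended further than Sox6. Tenocyte-like clusters, of which the first was led by Lyz2, had 420 and 309 CPM of Sox9 but 14.8 and 2.19 CPM of Sox6. Kera was not among the markers that named them, and Tnmd was in 46.8 and 41.7% of their cells. Their Acan was at 553 and 164 CPM, between FAP/MP-like (56.7 and 21.0 CPM) and chondrocyte-like clusters (3000 and 1305 CPM). The name therefore does not set them apart as tendon cells. FAP/MP-like clusters had 182 and 98.6 CPM of Sox9 and 0.808 and 0.506 CPM of Sox6. The 38 pericyte-like cells of 2 clusters had low Sox9 (17.4 CPM) beside 85.3 CPM of Sox5 and 20.2 CPM of Sox6, and the cluster led by Myh11 reached 96.1 CPM of Sox5. Sox6 was at 42.7 CPM (12 UMIs) in the cluster led by Myh11 and at 4.87 CPM (2 UMIs) in the cluster led by Rgs5.

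At d5 post-polytrauma a chondrocyte-like cluster of 135 cells had 330 CPM of Sox9, 45.6 CPM of Sox5 and 72.5 CPM of Sox6, with 5139 CPM of Col2a1. These were 1.16% of the cells, yet they held 40.0% of all Sox6 UMIs, against 6.03% of the Sox5 UMIs and 3.49% of the Sox9 UMIs. The largest cluster, 2915 FAP/MP-like cells led by mitosis genes, had 94.3 CPM of Sox9 and 1.27 CPM of Sox6. Sox9 in the FAP/MP-like clusters ranged from 75.9 to 193 CPM, and Sox5 from 7.60 to 14.4 CPM. Hematopoietic-like cells (29 cells) had 42.0 CPM of Sox9 on 12 UMIs, 1 Sox5 UMI and no Sox6 UMI. The interval of this Sox9 level, 21.7 to 73.3 CPM, overlapped that of the lowest FAP/MP-like cluster (71.4 to 80.6 CPM). The other FAP/MP-like clusters, at 94.3 CPM or more, lay above it.

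Co-detection was examined in cells drawn to 5000 UMIs, which left 918 cells at d0, 4907 and 1414 at d3 and d5 post-fracture, and 5744 and 10839 at d3 and d5 post-polytrauma. Shallower cells, 3714 of 4632 at d0 and 54 of 1468 at d5 post-fracture, were left out, so that d0 shares describe its deepest cells. All 3 genes were found together in 4 cells at d0 (0.436%), 30 cells at d5 post-fracture (2.12%, 95% binomial interval 1.44 to 3.02%) and 13 cells at d5 post-polytrauma (0.120%, 0.0639 to 0.205%). At d3 no cell held all 3, which allows up to 0.0751% post-fracture and 0.0642% post-polytrauma. Only 15 drawn cells at d3 post-fracture and 11 at d3 post-polytrauma had Sox6. With so few, the lack of d3 cells with all 3 does not tell whether the genes occur together. Whether the counts at d0 and d5 exceed the overlap of independently detected genes was not tested.

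The overlap of Sox6 with Sox9 was low at d0 and high at d5. At d0, Sox9 was detected in 9.21% (3.78 to 18.1%) of the 76 cells with Sox6 and in 19.0% (16.4 to 21.8%) of cells without it. At d5 post-fracture, Sox9 was detected in 81.8% (73.8 to 88.2%) of the 121 cells with Sox6, against 58.7% (56.0 to 61.4%) of cells without. At d5 post-polytrauma the shares were 57.5% (47.9 to 66.8%) of 113 cells and 38.3% (37.4 to 39.2%). Cells with Sox6 therefore had Sox9 less often than other cells at d0, with intervals that overlapped, and more often in both d5 libraries. For Sox5 the gaps in Sox9 detection were smaller. At d0, Sox9 was detected in 16.2% of cells with Sox5 and 18.5% of cells without it. At d5 post-fracture the shares were 67.7% (60.5 to 74.4%) and 59.6% (56.8 to 62.4%), with intervals that overlapped. They were 43.8 and 38.2% at d5 post-polytrauma.

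Cells of the d5 libraries were then grouped by Col2a1, the main collagen gene of cartilage, among the 5000 drawn UMIs. Post-fracture, Sox9 was at 284 CPM in 970 cells without Col2a1, 371 CPM in 266 cells with 1 to 3 UMIs, 724 CPM in 45 cells with 4 to 15 and 854 CPM in 133 cells with 16 or more. Over the same groups Sox5 was at 24.1, 26.3, 75.6 and 91.7 CPM. Sox6 was at 6.80, 21.1, 84.4 and 119 CPM. Sox6 thus differed most between the lowest and highest groups, and the intervals of the 2 highest groups overlapped for each gene. Pericyte-like clusters of the library had 24.3 and 42.7 CPM of Col2a1, and the part of free RNA in single Col2a1 UMIs was not tested.

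Most cells with Sox9 had no Col2a1 among the 5000 drawn UMIs, and neither had most drawn cells of any kind. Of all drawn cells, 970 of 1414 post-fracture and 10567 of 10839 post-polytrauma lacked it. The share depends on depth, since undrawn 72.1% of all d5 post-fracture cells had a Col2a1 UMI. Of 858 drawn cells with Sox9 at d5 post-fracture, 62.0% lacked Col2a1, against 53.2% of 186 cells with Sox5 and 26.4% of 121 cells with Sox6. Post-polytrauma, 96.4% of 4171 cells with Sox9, 91.6% of 479 cells with Sox5 and 64.6% of 113 cells with Sox6 lacked it. Sox6 was the gene of the trio whose cells had Col2a1 most often in both libraries at this depth.

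**Figure D3:**
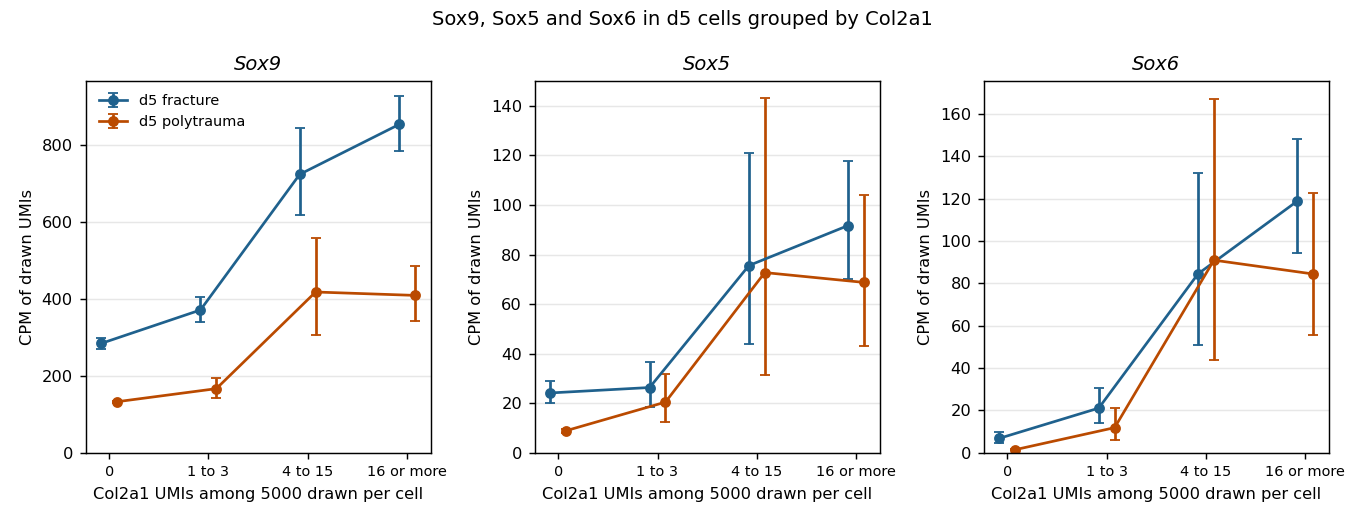
CPM of Sox9, Sox5 and Sox6 in d5 cells drawn to 5000 UMIs and grouped by their Col2a1 UMIs, with 95% Poisson intervals. Sox9 is lower post-polytrauma in each of the 4 groups, whereas the intervals of Sox5 and Sox6 overlap in the 3 groups with Col2a1.

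Cells with alike Col2a1 were compared between injuries at d5. With 16 or more Col2a1 UMIs (64 cells post-polytrauma and 133 post-fracture), Sox9 was at 409 CPM against 854 CPM, a log2 ratio of −1.06 (−1.35 to −0.78). Sox5 was at 68.8 against 91.7 CPM (−0.42, −1.19 to 0.31) and Sox6 at 84.4 against 119 CPM (−0.49, −1.18 to 0.15), with intervals that included 0. The Sox9 gap was of similar size in cells without Col2a1, where Sox9 was at 133 against 284 CPM (−1.10, −1.18 to −1.02). There, Sox5 was at 8.90 against 24.1 CPM (−1.44, −1.73 to −1.13) and Sox6 at 1.44 against 6.80 CPM (−2.24, −2.85 to −1.61). The share of cells with 16 or more Col2a1 UMIs was 0.590% post-polytrauma and 9.41% post-fracture. Among cells of the highest Col2a1 group, no difference of Sox6 beyond counting error was thus detectable, on 27 and 79 UMIs. The interval reached past 2-fold lower. The libraries differed in the share of such cells, and the part of that share in the Sox6 gap was not tested. The chondrocyte-like clusters, undrawn, gave more UMIs. There the log2 ratios were −0.86 (−0.96 to −0.76) for Sox9 and −0.43 (−0.71 to −0.15) for Sox5, both below 0. For Sox6 the ratio was −0.16 (−0.39 to 0.057). The post-fracture side pooled 2 clusters with 127 and 57.9 CPM of Sox6, which lay above and below the 72.5 CPM post-polytrauma. The Sox6 ratio thus depends on their mix. Outside the chondrocyte-like clusters, Sox6 was at 1.46 against 5.95 CPM (−2.02, −2.28 to −1.77).

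Of 20 genes known as targets of the trio in cartilage, 18 reached 20 UMIs over d0 and d3 post-fracture. At d3, 3 were at least 2-fold higher and 10 lower, against 13.0 and 33.5% of all genes, with a median log2 ratio of −1.96. Acan, the aggrecan core protein, was higher (4.01 CPM at d0 and 30.8 CPM at d3). Col2a1 (7.80 and 0.870 CPM) and Comp, a matrix glycoprotein of cartilage and tendon (225 and 51.9 CPM), were lower, so that the ratio of Acan had the sign of Sox9, and the ratios of Col2a1 and Comp had the sign of Sox5 and Sox6. A link behind these shared signs was not tested. At d0, 68.4% of the Col2a1 UMIs lay in an unnamed cluster of 317 cells, led by genes such as Bglap2, Wif1, Chad and Cilp2. That cluster was 6.84% of the cells and held 6.79% of the Sox9, 1.62% of the Sox5 and 6.82% of the Sox6 UMIs. It also held 54.0% of the Tnmd UMIs.

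At d5 post-fracture all 20 were at least 2-fold higher than at d3, against 40.3% of all genes, with a median log2 ratio of 6.38. Col2a1 was at 1525 CPM, Col11a1, another fibrillar collagen of cartilage, at 913 CPM and the collagen IX gene Col9a3 at 357 CPM. With median-of-ratios scaling 18 of 20 passed, against 2855 of all 15115 measured genes. From d3 to d5 post-polytrauma 17 of 18 were higher and none lower, against 28.6 and 7.58% of all genes, with a median log2 ratio of 3.56. With median-of-ratios scaling 15 of 18 were higher, against 2447 of 16058 genes. At d5, 19 of 20 were lower post-polytrauma than post-fracture, against 14.8% of all genes (median −3.82), among them Col2a1 (72.1 against 1525 CPM), Acan (79.6 against 681 CPM) and Hapln1, a link protein (13.7 against 205 CPM). At d3, 9 of 16 were lower post-polytrauma and none higher (median −1.43), against 3.14 and 5.45% of all genes.

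**Figure D4:**
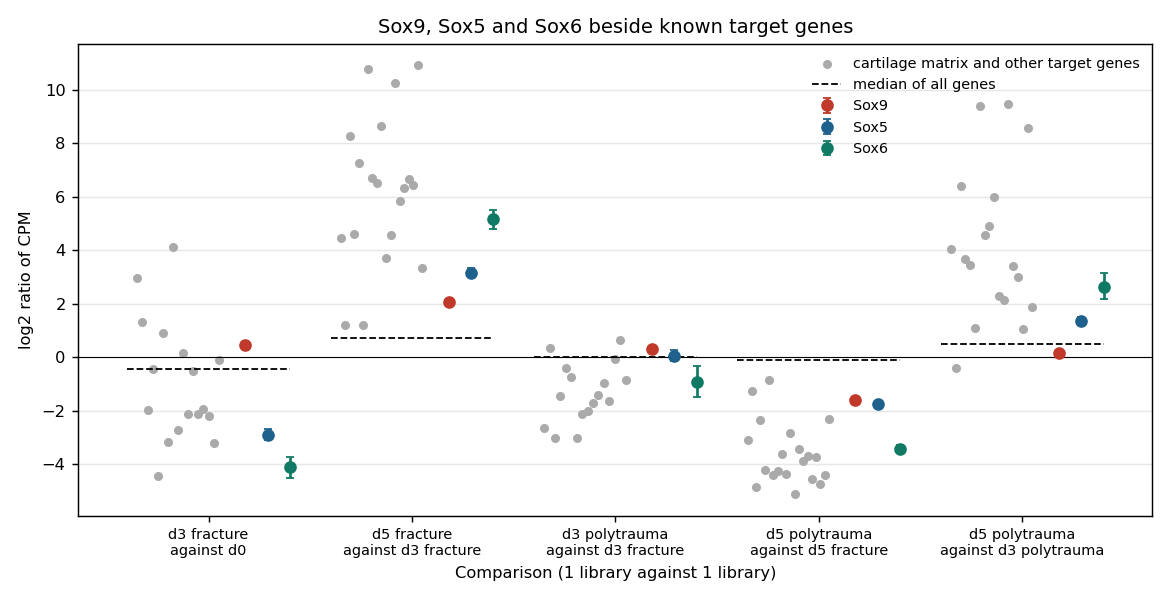
Log2 ratios of CPM in the 5 comparisons for Sox9, Sox5 and Sox6 (coloured, with 95% counting intervals) and for their known target genes (grey, genes with UMIs in both libraries), with the median of all measured genes as a dashed line. Sox6 and most targets lie above the median at d5 against d3 in both injuries, while Sox9 post-polytrauma (0.17, or −0.32 with median-of-ratios scaling) lies below it.

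Other regulators of chondrogenesis gave a further frame for the trio. Of 14 measured at d5 against d3 post-fracture, 11 were at least 2-fold higher and none lower, against 40.3 and 5.45% of all genes, with a median log2 ratio of 2.79, which lay between those of Sox9 and Sox5. Twist1, a mesenchymal bHLH factor, was at 122 against 14.9 CPM, and Pth1r, the receptor of parathyroid hormone-related protein, at 107 against 9.39 CPM. At d3 post-fracture against d0, 2 of 13 were higher and 5 lower, which is near the 13.0 and 33.5% of all genes. Runx2, a regulator of osteoblasts and hypertrophic chondrocytes, was higher at d3 (37.4 against 7.91 CPM), whereas Mef2c, a MADS-box factor of chondrocyte hypertrophy (18.1 against 101 CPM), and the forkhead gene Foxc1 (8.97 against 55.1 CPM) were lower. At d5 post-polytrauma against post-fracture 5 of 14 were lower and none higher, against 14.8 and 3.52% of all genes. At d3, 2 of 13 were lower and 1 higher, against 3.14 and 5.45%. From d3 to d5 post-polytrauma 10 of 14 were higher and none lower, against 28.6 and 7.58%.

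Across 50 clusters of at least 50 cells from the 5 libraries, the genes of most similar profile were named by Pearson's r on log2(CPM + 1) among 9415 genes. The clusters share libraries and depth, so that r is a description only. For Sox9 these were Capn6 (r = 0.885), Zfp385b, Pak3, Plscr2 and Tenm3 (0.789). For Sox5 they were Pim3 (0.807), Utrn, Sobp, Nbr1 and 4930523C07Rik (0.791). For Sox6 they were Susd5 (0.879), Gm973, Gprc5c, Map7d2 and Itga10 (0.814), of which Itga10 encodes a collagen-binding integrin subunit of chondrocytes. Within the trio r was 0.56 for Sox5 and Sox6, 0.24 for Sox9 and Sox5, and 0.19 for Sox9 and Sox6. The profiles of the SoxD genes were thus nearer to each other than to that of Sox9. However, Sox6 ranked only 585th of the 9415 genes for Sox5, and Sox5 ranked 183rd for Sox6, so that many other genes were nearer to each.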

How the data were processed

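GFP+ cells were profiled with the 10x Genomics Chromium 3′ v.2 assay, 1 library per condition pooled from 2 mice. The authors aligned reads to mm10 with Cell Ranger and deposited filtered matrices of raw UMI counts per gene and cell, without cell annotation. The submitters' processing notes also name Seurat 3.1.2. Barcodes with 350 to 8000 genes, under 20% mitochondrial UMIs and at least 1000 UMIs were retained, giving 17437190 to 201489765 UMIs per library. The lowest barcode of each library had 500 UMIs. No doublet caller was run. Instead the 10% of cells with most UMIs were left out as an alternative, since the upper gene limit removed 30 cells of 1 library only.

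UMIs were summed per library or cluster and scaled to CPM with exact Poisson intervals. Ratios carried exact conditional intervals and shares carried exact binomial (Clopper-Pearson) intervals. All intervals were at 95% and without a test, since a condition was 1 library. A gene was measured with 20 UMIs over both libraries and called at 2-fold. Cells were drawn without replacement to 1000 UMIs for shares and 5000 UMIs for co-detection, leaving out shallower cells. Clusters came from 2000 variable genes, 20 principal components and the Leiden algorithm (leidenalg 0.10.2, igraph 0.11.9). A name needed 3 markers in at least 10% of cells. NumPy 2.4.6, SciPy 1.17.1 and Python 3.11.15 were used, and the ratio and drawing steps were tested on simulated data. Sox9, Sox5 and Sox6 were always named. From each fixed list the counts and up to 8 genes with the largest CPM were described, and the 5 genes of highest r were named for likeness. Names of some list members were matched by gene identifier. The genes and lists were chosen with earlier results of these data known. Positions are from GENCODE M21 and promoters from RefSeq.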

Additional observations from a re-analysis of the deposited data

Results flagged for a closer look

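Polytrauma against fracture gave opposite signs at d3 and d5 for Sox9 and Sox5. The Sox9 log2 ratio was 0.30 at d3 and −1.59 at d5, and the Sox5 ratio was 0.059 at d3, with an interval that included 0, and −1.75 at d5. With 1 library per condition the difference between days was not tested. Barcodes of d5 post-polytrauma that also occurred in d5 post-fracture were left out of the comparisons (338 cells, median 1262 UMIs). In them Sox9 was at 238 CPM, Sox5 at 25.5 CPM and Sox6 at 20.2 CPM. The retained cells of d5 post-polytrauma had 126, 10.0 and 2.41 CPM. Col2a1 was 1682 CPM in the left-out barcodes and 72.1 CPM in the retained cells. It was 1831 CPM in the d5 post-fracture cells whose barcodes were in both libraries. Of the 944 barcodes in both, 888 were at least 10 times deeper in d5 post-fracture.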

How the results depend on the processing

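No paired analysis was possible because each condition was 1 library and no replicate numbers link the groups, and there was no replicate to leave out. Depth limits the low counts of Sox6 at d3 and of single clusters, and the d5 post-fracture library held the fewest and deepest cells. Of 105 log2 ratios of Sox9, Sox5 and Sox6 under alternatives other than the deposited conditions, 104 kept their sign. The cause of each move was not tested. All 15 ratios stayed within their main interval with the shared barcodes kept in d5 post-polytrauma, without a minimum on UMIs, without the upper gene limit and without hematopoietic cells. Keeping the shared barcodes altered d5 post-polytrauma only, and lifting the gene limit altered d5 post-fracture only. Ratios without the altered library could not move there, yet they are counted among the 105 and the 15.

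With conditions as deposited, the log2 ratios of Sox9, Sox5 and Sox6 were 0.30, 0.059 and −0.92 for d5 against d3 post-fracture, 2.06, 3.15 and 5.15 for d3 polytrauma against d3 fracture, 0.17, 1.34 and 2.64 for d5 polytrauma against d5 fracture, and −1.59, −1.75 and −3.43 for d5 against d3 polytrauma. Without any shared barcode, d5 against d3 post-fracture was 1.98 for Sox9 and 4.53 for Sox6, and d5 polytrauma against d5 fracture was −1.51, −1.60 and −2.75. Without the 10% of cells with most UMIs these comparisons gave 1.90, 2.94 and 4.76, and −1.41, −1.60 and −3.02. With median-of-ratios scaling, the ratios were 1.02, −2.32 and −3.53 for d3 fracture against d0, 1.32, 2.41 and 4.41 for d5 against d3 post-fracture, −1.38, −1.55 and −3.22 for d5 polytrauma against d5 fracture, −0.32, 0.86 and 2.15 for d5 against d3 polytrauma, and 0.26 for Sox9 in d3 polytrauma against d3 fracture.

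Genes at least 2-fold higher and lower under that scaling numbered 3483 and 3107 (d3 fracture against d0, 1892 and 4894 before), 2855 and 2948 (d5 against d3 fracture, 6098 and 824 before), 2447 and 2205 (d5 against d3 polytrauma, 4589 and 1217 before), and 879 higher (d5 polytrauma against fracture, 561 before). At 100 UMIs over both libraries the counts were 397 and 260 for d3 polytrauma against fracture (820 and 472 at 20 UMIs), 317 and 1449 at d5 (561 and 2364), and 691 lower for d5 against d3 polytrauma.

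In the order d0, d3 and d5 post-fracture, d3 and d5 post-polytrauma, shares at 2000 UMIs per cell were 10.1, 15.8, 41.0, 19.0 and 20.5% for Sox9. For Sox5 at 2000 UMIs they were 5.43% at d0 and 5.56, 0.834 and 1.89% in the last 3 libraries, and for Sox6 2.08% at d0 and 3.82 and 0.470% at d5 post-fracture and d5 post-polytrauma. At 5000 UMIs they were 18.2, 31.4, 60.7, 37.4 and 38.5% for Sox9, 12.1, 2.06, 13.2, 2.26 and 4.42% for Sox5, and 8.28, 0.306, 8.56, 0.192 and 1.04% for Sox6, where d0 and d5 post-fracture were close. However, only 918 of 4632 d0 cells were deep enough for 5000 UMIs, against 1414 of 1468 at d5 post-fracture. At 1000 UMIs, which every retained cell had, these Sox6 shares were 0.734 and 1.91%. Another draw moved Sox9 at d3 post-fracture to 7.87% and Sox6 at d0 to 1.04%. At a cluster resolution of 1.0 the highest Sox9 level in a cluster was 158 CPM at d3 post-fracture (121 before) and 171 CPM at d3 post-polytrauma (150.2 before).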

Other observations

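Of 16 other Sox genes, 6 to 8 reached 20 UMIs over both libraries of a comparison. Sox4, a SoxC factor of many progenitors, was at 58.8 CPM at d0, 53.2 and 239 CPM at d3 and d5 post-fracture, and 51.3 and 172 CPM at d3 and d5 post-polytrauma, and was thus higher at d5 than at d3 in both injuries. Sox11, the related SoxC gene, was at 15.4 and 7.06 CPM at d3 and d5 post-fracture against 14.0 and 14.9 CPM post-polytrauma. Sox8, a SoxE relative of Sox9, was highest at d0 (6.997 CPM) and lay at 0.754 to 2.62 CPM after injury. It was at 23.9 CPM in the d0 cluster of highest Sox9. Of the SoxD genes, Sox13 was at 9.46 CPM at d0 and 1.10 to 1.55 CPM in the injured libraries, which was lower than d0 at d5 post-fracture too, unlike Sox5 and Sox6. In all, 1 of 6 measured genes was at least 2-fold higher and 3 lower at d3 post-fracture against d0 (13.0 and 33.5% of all genes), and 4 of 7 were higher and 1 lower at d5 against d3 (40.3 and 5.45%). Polytrauma against fracture gave 1 of 6 higher and none lower at d3 (5.45 and 3.14%), and 1 higher and 2 lower of 8 at d5 (3.52 and 14.8%). From d3 to d5 post-polytrauma 4 of 8 were higher and none lower (28.6 and 7.58%). With 6 to 8 genes measured, these counts are too few to set the list apart from all genes.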
